A study of Mus musculus with 3 samples.

Results

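The genes described here are 10 members of the NRF2 pathway and its antioxidant targets, namely Nfe2l2, Keap1, Nqo1, Gclc, Gclm, Txnrd1, Srxn1, Slc7a11, Gsr and Osgin1. They were chosen by name, with earlier results of these data known. All 10 were found among the 18193 genes that had a probe set listing a single gene on the array. They were read by 21 probe sets, and for each gene the probe set with the highest mean over the 3 arrays stood for the gene, with the others given beside it. Total liver RNA came from mice aged 3 months on a mixed strain background, taken 1 week after 1 intraperitoneal injection of 400 microL of virus. The control group was 2 mice given the EGFP virus (MUP-EGFP-AAV8), and the Cre group was 1 mouse given the iCre virus (MUP-iCre-AAV8), with 1 array per mouse. AAV8 is an adeno-associated virus that infects hepatocytes well, and Cre removes DNA that lies between loxP sites. The series design describes HNF4alpha-floxed mice for both viruses, while wild type is the word on the labels of the control samples and HNF4alpha knockout that on the Cre sample, so genotype and virus cannot be told apart. Neither the labels nor the design state what the MUP prefix stands for or the sex of the mice. Every Cre value rests on a single animal.

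NRF2, the protein of Nfe2l2, is a transcription factor that turns on genes for making glutathione, recycling thioredoxin and detoxifying reactive compounds. In unstressed cells KEAP1 binds NRF2 and presents it to a CUL3 ubiquitin ligase for destruction, and electrophiles or oxidants that modify KEAP1 let NRF2 accumulate. NRF2 then pairs with a small MAF protein and binds antioxidant response elements near its targets, so much of its control lies in protein stability, which mRNA levels do not show. In liver the pathway is best known for protection against drugs and reactive metabolites. HNF4alpha, the product of the targeted gene Hnf4a, is a nuclear receptor that maintains hepatocyte gene expression.

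The arrays had median log2 expression of 4.183 and 4.152 in the controls against 4.155 with Cre virus. The 4 probe sets of Hnf4a each read below both controls with Cre virus, with differences of -0.55 to -1.18, and 1421983_s_at passed the test over all probe sets (limma adjusted p = 0.0364). The brightest, 1427001_s_at, was at 11.91 and 11.96 in the controls against 11.38 and did not pass in that fit. In the fit over genes Hnf4a passed, as it did in 7 of 11 other settings. Probe positions relative to a deleted part of the gene were not analysed here. Hepatocyte markers were bright on all arrays, and none of the 7 tested passed (3 had an unadjusted limma p under 0.05), with Alb at 14.75 and 14.72 in the control virus livers against 14.62 with Cre virus. Of the 8 macrophage markers 1 rose, Marco, at 4.74 and 4.67 in the control virus livers against 6.58 with Cre virus. The summed linear signal of these markers was 980 and 1464 in the controls against 1841 with Cre virus. Lymphocyte, endothelial and stellate cell lists had 0 of 21 genes past the threshold (4 at an unadjusted limma p under 0.05). Over all genes fitted, 9.34% passed in either direction. In the bile duct list Krt19 stayed between 3.59 and 3.79 on all arrays, and Sox9 was at 3.87 and 4.82 against 6.69 without passing (adjusted p = 0.0513). The red cell list had 1 gene tested, Alas2, which fell (-3.27). The gap between 3-prime and 5-prime control probe sets, a sign of RNA integrity, was widest in the Cre liver for Actb (1.71 and 2.06 against 2.39 log2 units) and for Gapdh (0.45 and 0.82 against 1.04). The part of macrophage signal and of RNA integrity in the results below was not tested.

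Promoter sequences are shown for the 5 members with the largest differences, to let the changes be read beside the bases in front of each gene. The RefSeq table (build GRCm38.p6) held 10 windows of 250 bases before to 50 after a transcription start for 8 of the 10 members, and Gclc and Gsr had none. Each line gives the 250 bases before the start, 5′ to 3′ on the gene's strand. They lie at chr2:75704664-75704913 (minus strand) for Nfe2l2, chr8:119436897-119437146 (plus) for Osgin1, chr2:152105274-152105523 (plus) for Srxn1, chr3:122245307-122245556 (plus) for Gclm and chr10:82858956-82859205 (plus) for the second of the 3 Txnrd1 windows. Capitals mark matches on either strand to TGACNNNGC, the antioxidant response element core in the form searched here. In Osgin1 and Srxn1 they also mark matches to TGACTCA, the letters of an AP-1-type site. The Txnrd1 window shown was picked because it held a match to TGACNNNGC, and the other Txnrd1 windows held none.
Osgin1: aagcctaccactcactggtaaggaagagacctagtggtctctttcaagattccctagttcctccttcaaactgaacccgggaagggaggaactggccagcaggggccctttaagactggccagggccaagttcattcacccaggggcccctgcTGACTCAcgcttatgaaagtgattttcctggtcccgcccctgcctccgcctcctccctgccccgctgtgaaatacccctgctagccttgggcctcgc
Nfe2l2: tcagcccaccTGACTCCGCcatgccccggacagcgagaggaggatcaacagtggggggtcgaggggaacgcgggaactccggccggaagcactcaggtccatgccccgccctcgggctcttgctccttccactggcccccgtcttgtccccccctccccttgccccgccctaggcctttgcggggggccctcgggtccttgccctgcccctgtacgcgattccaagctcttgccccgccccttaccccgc
Srxn1: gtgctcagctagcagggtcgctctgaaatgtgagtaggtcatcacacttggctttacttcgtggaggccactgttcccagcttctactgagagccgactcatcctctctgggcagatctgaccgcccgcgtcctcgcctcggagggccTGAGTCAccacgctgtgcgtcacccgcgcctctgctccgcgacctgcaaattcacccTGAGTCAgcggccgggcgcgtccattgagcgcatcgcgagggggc
Txnrd1, second window: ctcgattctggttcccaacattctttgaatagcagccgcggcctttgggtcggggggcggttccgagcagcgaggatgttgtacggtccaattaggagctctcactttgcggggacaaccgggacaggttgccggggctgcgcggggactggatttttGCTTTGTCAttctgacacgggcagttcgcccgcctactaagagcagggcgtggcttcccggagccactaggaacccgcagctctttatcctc
Gclm: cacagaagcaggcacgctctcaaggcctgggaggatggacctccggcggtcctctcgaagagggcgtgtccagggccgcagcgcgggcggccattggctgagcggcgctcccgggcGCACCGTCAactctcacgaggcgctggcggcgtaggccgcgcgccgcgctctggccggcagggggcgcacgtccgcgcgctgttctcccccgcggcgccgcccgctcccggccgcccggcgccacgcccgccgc

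The antioxidant response element core was found in 4 of the 10 member windows and in 4 of the 8 genes, against 12.4% of all 32851 windows and 14.0% of all 27025 genes with a window. The matches were TGACTCCGC in Nfe2l2, at positions -240 to -232 counted from the start, GCACCGTCA in Gclm at -134 to -126, and GCTTTGTCA in the second Txnrd1 window at -92 to -84. Srxn1 had GCTAGGTCA at 29 to 37 after the start, outside the stretch printed. The windows of Osgin1, Nqo1, Keap1 and Slc7a11 did not hold TGACNNNGC, the only form of the element searched. TGACTCA, searched after the bases of Osgin1 had been seen, occurred once in Osgin1 (-97 to -91) and on the opposite strand in Srxn1 at -102 to -96 and -45 to -39, against 5.20% of all windows. No match to TGACNNNGC in these windows overlapped one to TGACTCA. Together with the GC beside them, the Osgin1 match and the Srxn1 match at -45 to -39 read TGAGTCAGC (on the opposite strand in Osgin1). These letters have G after TGA where TGACNNNGC has C, and such a form was not searched. CAAAGTCCA, an HNF4A-type motif, was in 0 of the 10 windows, against 0.475% of all windows. A match describes letters only, and binding was not measured here.

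Of the 10 members, Osgin1, Nfe2l2 and Srxn1 rose in the liver given Cre virus, Gclm fell, and the other 6 did not pass. Among all 14733 genes fitted, 5.12% rose and 4.22% fell at a limma adjusted p under 0.05, or 9.34% in either direction. The members were chosen with earlier results of these data known, so these shares are given as description only. The median difference between the Cre liver and the control mean was 0.27 on the log2 scale over the members and 0.05 over all fitted genes. The Cre value lay above both controls for 8 members (for Slc7a11 equal to control 2 at 2 decimals) and below both for 2, whereas 81.9% of all fitted genes lay outside both controls (45.9% above and 36.0% below). By size alone 2 members, Osgin1 and Nfe2l2, were at least 1 log2 unit above both controls (3.35% of all genes) and 0 were that far below (3.23%). The control livers differed from each other by 0.007 to 0.28 log2 units in the members, with a median of 0.10, against 0.15 over all genes. These are differences in bulk liver RNA, in which fewer cells of a type and less RNA per cell cannot be told apart.

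**Figure D1:**
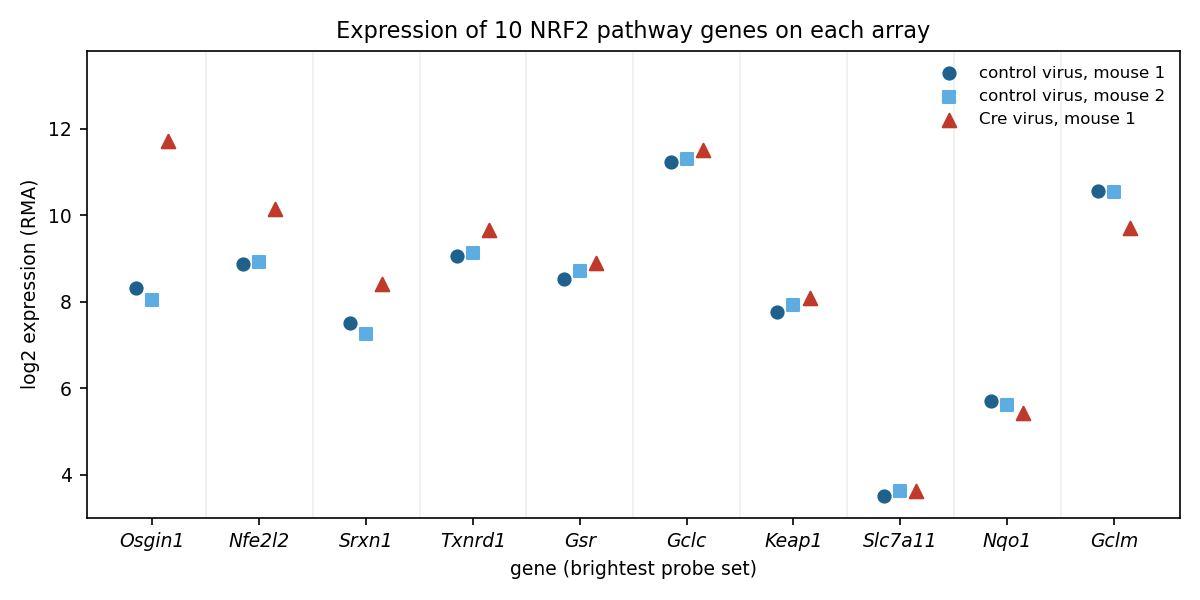
Log2 expression (y axis) of each gene's brightest probe set (x axis, ordered by difference) in the 2 control virus livers and the Cre virus liver, 1 point per array. The Cre point of Osgin1 stands at 11.72 against 8.32 and 8.04, and that of Gclm lies below both controls.

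Nfe2l2, which encodes NRF2 itself, was at 8.86 and 8.91 in the control virus livers against 10.14 with Cre virus. The Cre liver lay well clear of both controls, which differed by only 0.05. Nfe2l2 rose 2.39-fold (1.26 ± 0.12 SE, 95% interval 0.94 to 1.58, adjusted p = 0.013, limma). Its other probe set, 1457117_at, was at 5.36 and 5.28 in the control virus livers against 5.32 with Cre virus, between them. The mean of both probe sets gave 0.63 (adjusted p = 0.049). Keap1, the sensor that holds NRF2 down, was at 7.75 and 7.93 in the control virus livers against 8.09 with Cre virus, just above both. It did not pass (0.24 ± 0.15 SE, interval -0.17 to 0.66, adjusted p = 0.364), and its second probe set, 1450747_at, had its Cre value of 4.96 between controls of 4.80 and 4.98. The intervals of Nfe2l2 and Keap1 did not overlap, though the difference between the genes was not tested.

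The enzyme that starts glutathione synthesis is built from a catalytic subunit, Gclc, and a modifier subunit, Gclm, which raises its efficiency. With Cre virus the subunits lay on opposite sides of the controls. Gclm was at 10.55 and 10.54 in the control virus livers against 9.71 with Cre virus, below both, and fell 1.78-fold (-0.83 ± 0.11 SE, interval -1.12 to -0.54, adjusted p = 0.0242). Its second probe set, 1439050_at, was at 9.26 and 9.54 against 8.52, a like difference of -0.88 that did not pass over all probe sets (adjusted p = 0.0796). Gclc was at 11.23 and 11.29 in the control virus livers against 11.51 with Cre virus, slightly above both. It did not pass (0.25 ± 0.10 SE, interval -0.03 to 0.52, adjusted p = 0.21), and its second probe set, 1455959_s_at, gave 0.29. The intervals of Gclc and Gclm did not overlap, and both probe sets of each gene lay on the same side of both controls. The difference between the subunits itself was not tested.

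Slc7a11, the cystine carrier that brings in the sulfur for glutathione, was dim in every liver. It was at 3.51 and 3.63 in the control virus livers against 3.63 with Cre virus, near the filter value of 3.168, below which genes were not fitted. No difference was detectable (0.06 ± 0.18 SE, interval -0.43 to 0.54, adjusted p = 0.853), and its other probe set, 1443536_at, lay below the filter on every array (2.34 to 2.46). Gsr, glutathione reductase, which restores oxidised glutathione with NADPH, was at 8.52 and 8.70 in the control virus livers against 8.90 with Cre virus. That value lay above both controls by about the gap between them, and Gsr did not pass (0.29 ± 0.14 SE, interval -0.10 to 0.67, adjusted p = 0.275). Its second probe set, 1421816_at, was at 7.73 and 7.89 against 7.90.

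Srxn1, sulfiredoxin, which repairs over-oxidised peroxiredoxins, was at 7.51 and 7.24 in the control virus livers against 8.41 with Cre virus. It lay above both and rose 2.05-fold (1.04 ± 0.17 SE, interval 0.56 to 1.51, adjusted p = 0.0426), close to the threshold. Its 4 probe sets were not alike, and with every probe set fitted alone 1426875_s_at itself missed the threshold (adjusted p = 0.067). Probe sets 1451680_at (6.15 and 5.84 against 6.51) and 1425351_at (4.03 and 4.09 against 4.52) were above both controls without passing, while 1419942_at (5.29 and 4.90 against 4.86) was just below both. Averaging its probe sets gave Srxn1 a difference of 0.44 (adjusted p = 0.163), and it was 0.52 without probe sets that can read more than 1 transcript (adjusted p = 0.208). Over 11 other settings its adjusted p ranged from 0.0172 to 0.208 and passed in 6. The set that stood for the gene, 1426875_s_at, is of a type that can read more than 1 transcript.

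Txnrd1, the cytosolic thioredoxin reductase, was at 9.06 and 9.13 in the control virus livers against 9.66 with Cre virus, above both by much more than their gap. It missed the threshold (0.56 ± 0.12 SE, interval 0.24 to 0.89, adjusted p = 0.0663). It passed after quantile normalization (0.55, adjusted p = 0.0338), and its adjusted p ranged up to 0.56 over 10 other settings. The probe sets 1424486_a_at and 1424487_x_at of Txnrd1 read dim signal, at most 3.83 on any array, and the mean of all 3 probe sets was 0.14. Nqo1, a quinone reductase widely used as a readout of NRF2, was read by 1 probe set, at 5.69 and 5.62 in the control virus livers against 5.43 with Cre virus. It stood below both controls and did not pass (-0.23 ± 0.16 SE, interval -0.67 to 0.22, adjusted p = 0.427).

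Osgin1, an oxidative stress-induced gene linked to growth inhibition, was at 8.32 and 8.04 in the control virus livers against 11.72 with Cre virus. The Cre liver was 3.40 and 3.69 log2 units above the single controls. Osgin1 rose 11.7-fold (3.55 ± 0.17 SE, interval 3.09 to 4.0, adjusted p = 0.00265), the 18th highest difference among all 14733 genes fitted. It has 1 probe set, and its difference stayed between 3.51 and 3.56 over 11 other settings. Ordered by difference, Osgin1 was followed by Nfe2l2, Srxn1, Txnrd1, Gsr, Gclc, Keap1, Slc7a11, Nqo1 and Gclm. Only Osgin1 had an interval apart from that of its neighbour in this order; the intervals of each other neighbouring pair overlapped. Across the 21 probe sets of the members, 14 had their Cre value above both controls, 5 below both and 2 between. Fitted over all 31526 probe sets, 2 of the 19 past the filter rose (1.94% of all probe sets), 1416543_at of Nfe2l2 and 1424022_at of Osgin1. In the same fit 1 fell (2.35%), 1418627_at of Gclm.

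**Figure D2:**
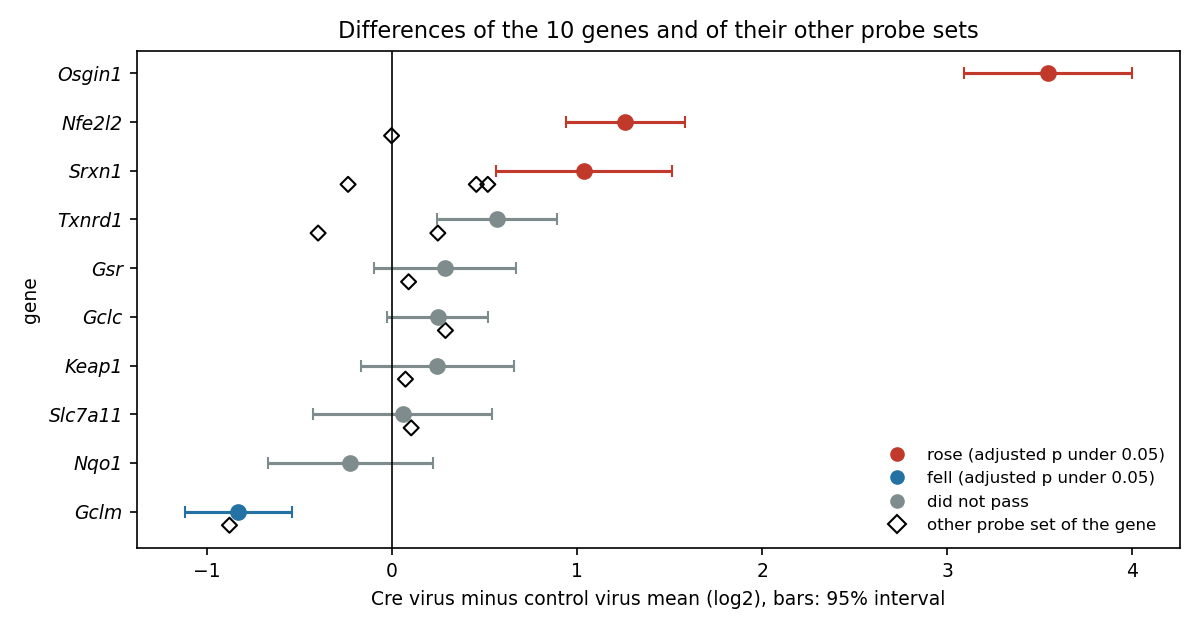
Difference between the Cre liver and the control mean (x axis, log2) for each gene (y axis), with the limma 95% interval as bars; open diamonds are the gene's other probe sets, without intervals. Osgin1, Nfe2l2 and Srxn1 rose and Gclm fell, while Nfe2l2, Srxn1 and Txnrd1 each had 1 other probe set at or below 0.

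The genes that control or assist NRF2 did not pass the test in either direction. Of 14 fitted, 0 rose and 0 fell by limma (4 higher and 1 lower at an unadjusted p under 0.05). Over all genes 9.34% passed in either direction, and a count of 0 among 14 is near that share. The median difference of the list was 0.07 (-0.08 with probe sets averaged and -0.01 without shared or mixed probe sets). Nfe2l1, which encodes the related factor NRF1, had the largest value, at 7.55 and 7.80 in the control virus livers against 8.49 with Cre virus (0.81 ± 0.17 SE, adjusted p = 0.0645). Its adjusted p passed in 4 of 10 other settings and ranged from 0.0261 to 0.0942. Mafg, a small MAF partner of NRF2, was at 8.67 and 8.57 against 9.23 (0.61 ± 0.13 SE, adjusted p = 0.0647), and passed in 3 of 11 other settings (0.0361 to 0.105). The other small MAF genes, Maff (-0.38) and Mafk (-0.39), lay on the opposite side. The ligase scaffold Cul3 was at 0.31, Sqstm1, whose product p62 draws KEAP1 away, at 0.38, the phosphatase Pgam5, a KEAP1 partner, at 0.48, and the repressors Bach1 at -0.03 and Bach2 at -0.72, none of them past the threshold.

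Among other genes known as NRF2 targets, 8 of 20 rose and 1 fell, against 5.12% and 4.22% of all genes, with a median of 0.45. The rises numbered 4 without the intensity trend and 5 both without a filter and with every probe set fitted alone, and 0 fell without shared or mixed probe sets, where Gsta2 was not fitted. The mu-class glutathione transferases Gstm2 (8.75 and 8.51 against 11.54) and Gstm3 (10.45 and 9.74 against 12.84) rose 7.54-fold and 6.72-fold. These genes are close relatives, so a probe set can read more than 1 of them. The efflux pump Abcc3 (1.26 ± 0.14 SE), the carbonyl reductase Cbr1 (1.17 ± 0.12 SE) and Ugdh, which makes the sugar donor for glucuronidation (0.96 ± 0.12 SE), rose as well. The remaining rises, of Aox1 (0.70, adjusted p = 0.0444), Abcc2 (0.61, adjusted p = 0.0428) and the epoxide hydrolase Ephx1 (0.56, adjusted p = 0.0432), were close to the threshold. Gsta2, an alpha-class glutathione transferase, fell 5.64-fold, from 11.98 and 11.37 to 9.18 (-2.49 ± 0.28 SE, adjusted p = 0.0187). Hmox1, the stress-induced heme oxygenase, was dim and did not pass, at 3.98 and 3.87 in the control virus livers against 3.65 with Cre virus (-0.28 ± 0.18 SE). The iron store gene Fth1 (-0.14) and Akr1b8 (-0.24) did not pass either.

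In glutathione metabolism 4 of 23 genes were higher and 2 lower, against 5.12% and 4.22% of all genes, with a median of 0.09. Without the intensity trend 2 were higher and 0 lower. Anpep, an aminopeptidase that trims glutathione breakdown products, was at 5.67 and 5.77 against 7.72 and rose 3.99-fold. Oplah, which returns 5-oxoproline to glutamate, was at 8.26 and 8.36 against 9.93 and rose 3.08-fold. Cbs (0.70 ± 0.10 SE) and Cth (0.68 ± 0.10 SE), which make cysteine from methionine, rose too. Lap3, a leucine aminopeptidase, fell from 11.27 and 11.01 to 10.13 (-1.02 ± 0.15 SE), and Glrx5, a mitochondrial glutaredoxin of iron-sulfur assembly, from 11.40 and 11.39 to 10.54 (-0.85 ± 0.10 SE). Gss, which completes glutathione synthesis after the Gclc and Gclm enzyme, had a difference of 0.74 ± 0.15 SE (adjusted p = 0.0611) and did not pass, nor did Gpx7 at 0.86 ± 0.17 SE (adjusted p = 0.0577). Lap3 passed in 8 of 11 other settings (adjusted p up to 0.0614). The peroxidases Gpx1 (0.00) and Gpx4 (-0.21) did not pass.

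In the thioredoxin and peroxiredoxin system 2 of 14 genes rose and 1 fell, against 5.12% and 4.22% of all genes. The median was 0.22 (0.11 after quantile normalization and 0.03 with probe sets averaged). Txnip, which binds and restrains thioredoxin, rose 5.21-fold, from 7.23 and 7.84 to 9.92, and the mitochondrial peroxiredoxin Prdx3 rose (0.73 ± 0.12 SE), the latter in 7 of 11 other settings (adjusted p up to 0.0851). Prdx2 was at 0.99 without passing (adjusted p = 0.0516) and had -0.06 when its probe sets were averaged. Msra, which repairs oxidised methionine, fell 3.38-fold, from 10.54 and 10.39 to 8.70. The thioredoxin gene Txn1, whose product Txnrd1 recycles, was at 0.13 ± 0.09 SE and did not pass. For NADPH supply 2 of 9 genes rose and 0 fell (5 rose after quantile normalization and 1 without the intensity trend), against 5.12% and 4.22% of all genes. The median of this list was 0.56, and was lower with probe sets averaged and without shared or mixed probe sets. Tkt, transketolase, was at 10.99 and 11.05 against 12.23 and rose 2.32-fold, and Nnt, the mitochondrial transhydrogenase, rose (0.79 ± 0.12 SE; 0.37 at its lowest in other settings, with an adjusted p of up to 0.145). Pgd, of the pentose phosphate pathway, was at 0.74 ± 0.15 SE (adjusted p = 0.0621), and malic enzyme Me1 at 0.84 ± 0.37 SE (adjusted p = 0.233), neither past the threshold. Over other settings Me1 ranged from -0.35 to 0.85. Superoxide dismutases and catalase had 0 of 5 past the threshold by limma (0 higher and 2 lower at an unadjusted p under 0.05), against 9.34% of all genes. Cat was at 12.91 and 13.20 against 12.46 (-0.60 ± 0.15 SE, adjusted p = 0.0896) and Sod1 at 12.70 and 12.84 against 12.19 (-0.57 ± 0.11 SE, adjusted p = 0.0519). Over other settings Sod1 ranged from -0.63 to -0.18 and passed in 5 of 11. Ccs, the copper chaperone of Sod1, was at -0.17 and the extracellular Sod3 at 0.18, without passing.

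Slc7a11 is also a target of ATF4, the factor of the amino acid stress response, so that response was read as well. Of 15 ATF4 pathway genes 0 passed by limma (1 higher and 1 lower at an unadjusted p under 0.05), against 9.34% of all genes. The median was 0.12. Atf4 was at 9.01 and 9.23 in the control virus livers against 8.83 with Cre virus. Asns, a sensitive ATF4 target, was at 8.53 and 7.92 against 8.15, between the controls. Trib3 was at 0.20 and Ddit3 at 0.29, neither past the threshold, and Vldlr was at 2.57 with controls 1.65 apart (adjusted p = 0.11). Ddit4, an inhibitor of mTORC1 signalling, was at 8.87 and 8.05 against 6.77, below both controls (-1.69 ± 0.37 SE, adjusted p = 0.072). Ddit4 passed in 4 of 11 other settings (0.0141 to 0.107). Chac1, which breaks down glutathione, was at -0.72 and Slc3a2, the partner chain of Slc7a11, at 0.57, neither past the threshold. Counted once each, the 97 genes of these 7 lists had 16 higher and 4 lower, against the 5.12% and 4.22% of all genes, with a median of 0.18 against 0.05. Genes were put on these lists with earlier results of these data known.

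**Figure D3:**
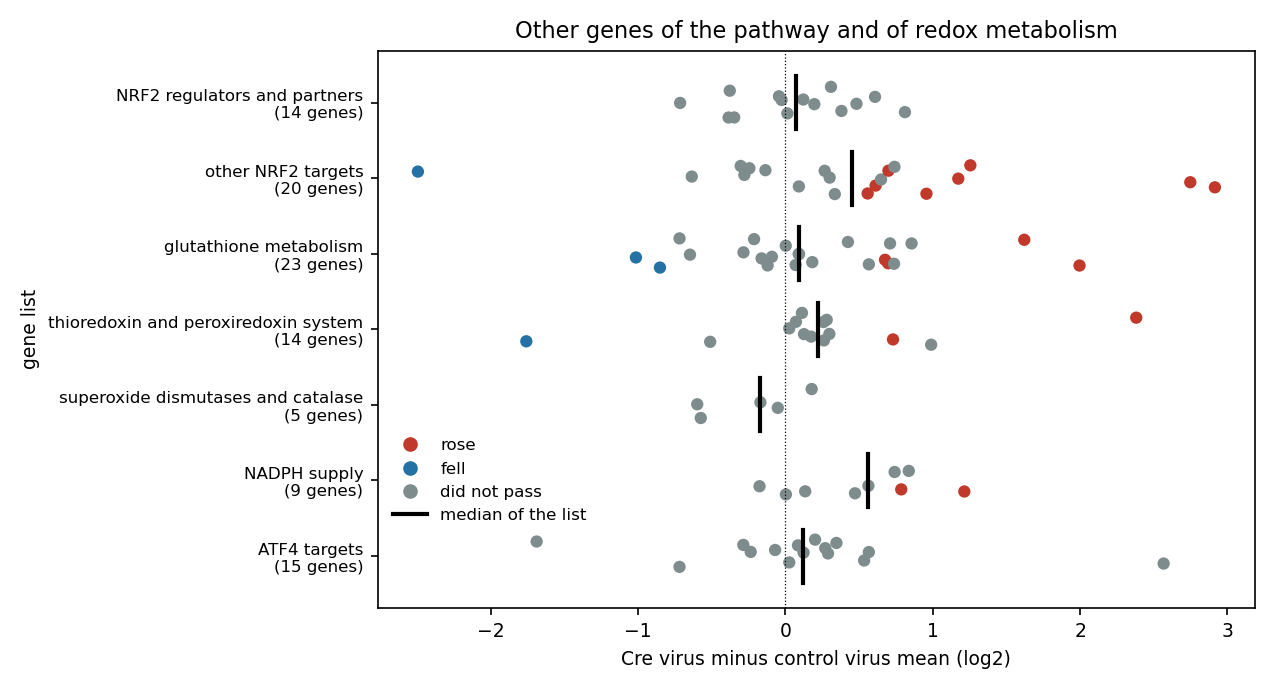
Difference between the Cre liver and the control mean (x axis, log2) for each fitted gene of 7 lists (y axis); colours give the limma call and the black bar the median of the list. The medians run from -0.17 for superoxide dismutases and catalase to 0.56 for NADPH supply (0.30 without shared or mixed probe sets, where the other NRF2 targets had 0.63), and Gsta2 and Gstm2 are the outermost genes of the other NRF2 targets.

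How firmly each member passed differed between genes. Osgin1 and Nfe2l2 passed in 11 of 11 other settings, with adjusted p of at most 0.00661 and 0.049. Gclm passed in 10 of 11, the exception being moderation without the intensity trend (adjusted p = 0.0575). Keap1, Gclc, Gsr, Nqo1 and Slc7a11 passed in 0 of the settings in which they were fitted. Leaving out a control array leaves no residual spread and so no test, and each member kept the sign of its difference from either control alone. With 1 Cre liver, the spread among Cre livers is unknown and was taken to equal that of the controls.

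**Figure D4:**
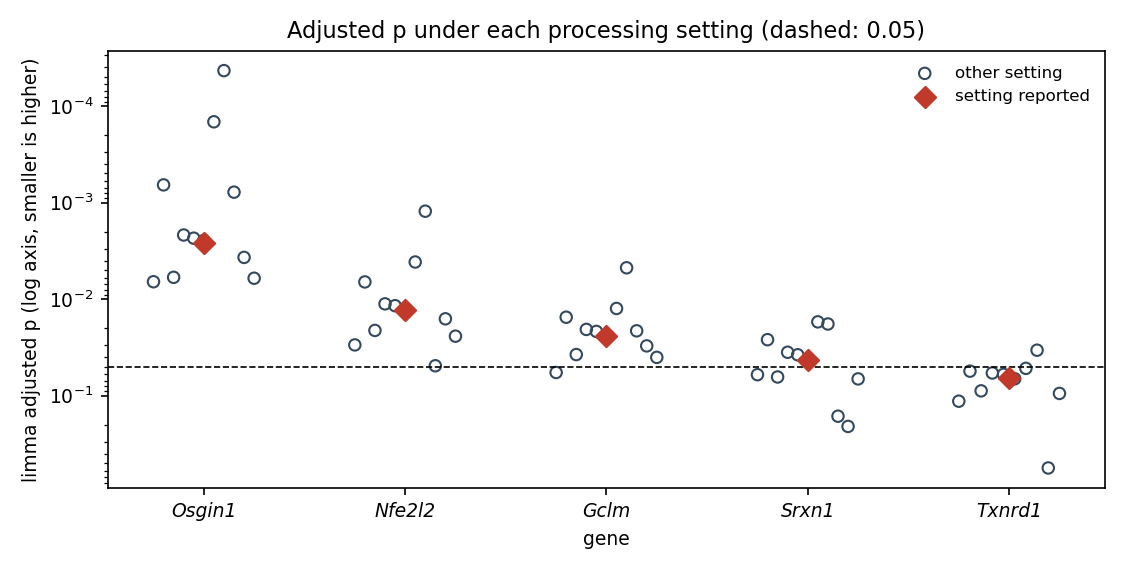
Limma adjusted p (y axis, log scale, smaller values higher) of 5 genes (x axis) in the setting reported (red diamonds) and in each other setting (open circles), with 0.05 as the dashed line. All circles of Osgin1 and Nfe2l2 lie past the line, whereas those of Srxn1 lie on both sides.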

How the data were processed

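Biotin-labelled total liver RNA of 3 mice was measured on 1 oligonucleotide array each. The authors deposited log2 values for probe sets; the submitters' processing notes name Partek 6.5 and RMA. That method corrects background, gives the arrays a shared distribution and summarises probes, which hides a shift common to all genes and compresses dim differences. No source used here gives the log base. Base 2 was inferred from the maximum of 15.048 found on all arrays, and folds depend on it. The values are not centred per gene. Of 45101 probe sets 34945 listed a single gene. Of these, 34741 were matched by Entrez ID to a GRCm38.p6 gene table and took its symbol. The 14733 genes whose brightest probe set had a mean at or above the 30th percentile of all probe sets (3.168) were fitted with limma 3.58.1 in R 4.3.3 (lmFit, eBayes with an intensity trend; 1 residual and 3.19 prior degrees of freedom). All 10 members passed this filter by their control means. Calls use two-sided Benjamini-Hochberg adjusted p under 0.05 over all fitted genes; SE is limma's moderated standard error. The fit was also run on simulated arrays in which the Cre array varied like the controls, so that assumption was not tested. Members and lists were chosen with earlier results of these data known. Named genes were the members, Hnf4a, up to 4 genes per list with the largest absolute difference, and others that describe their list. Alternatives changed moderation, filter, scaling, probe set choice, threshold and controls used. The number of arrays limits the precision. Promoters are from RefSeq. Figures used matplotlib 3.10.9.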

Additional observations from a re-analysis of the deposited data

How the results depend on the processing

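Members that rose numbered 2 to 4 over the other settings and 1 at a threshold of 0.01, against 3 reported; members that fell numbered 1 in each setting except moderation without trend and the threshold of 0.01, with 0. By size, 2 or 3 members were higher when a control was left out, 1 was higher with the mean of probe sets, and 1 was lower at 0.58 log2 units in place of 1. Among member probe sets (2 higher and 1 lower reported), 1 was higher and 0 lower without trend and without a filter, 2 were lower with robust moderation and with median centring, and 4 were higher and 2 lower after quantile normalization. Of the pathway genes (16 higher and 4 lower reported), 8 rose and 2 fell without trend, 10 rose without a filter and with every probe set fitted alone, 26 rose and 10 fell after quantile normalization, and 2 fell without shared or mixed probe sets. Among single genes, 3 values turned sign, none of them past the threshold: Prdx2 (-0.06) and Sod3 (-0.01) as means of probe sets, and Me1 (-0.35) without shared or mixed probe sets. The median of the NRF2 regulators turned sign too (-0.08 and -0.01 under these settings, against 0.07), and that of NADPH supply was 0.37 and 0.30, against 0.56. The causes were not tested. Over all genes, 1376 calls were made, 2207 after quantile normalization and 867 with every probe set fitted alone. A filter at the 30th percentile of the genes, added after seeing the data, kept all calls of the members and left Slc7a11 unfitted. No paired analysis was possible because the Cre group holds 1 mouse and the labels name no pairs between the groups. Counts of limma calls are not given without a control array, since no test is then possible. Signal near the array background limits Slc7a11 and the dim probe sets of Txnrd1.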
